A study of Homo sapiens with 8 samples.

Results

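The genes described here are the 8 keratins of basal and of wound-activated epidermis, KRT5, KRT14, KRT15, KRT6A, KRT6B, KRT6C, KRT16 and KRT17, taken by symbol from the 24252 rows of each deposited table. No member symbol occurred more than once, no pseudogene of a member was listed, and all 8 passed the filter of a mean of at least 1 FPKM (fragments per kilobase of transcript, scaled to the library total) over all libraries. RNA was sequenced from HaCaT, an immortalised human keratinocyte line, in 4 libraries labelled Control and 4 labelled OGD-R, from cells exposed to oxygen and glucose deprivation and then to their return. No treatment is labelled for the Control cells, and both groups come from the same line. The labels call the stage early without giving durations, and the series title concerns a search for a hub gene of a chronic pain disorder. Nothing in the labels ties a library to its own culture, and the p-values below then reflect only the variation among these libraries, which may be technical.

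Keratins form the intermediate filaments of epithelial cells, in which a type I chain always pairs with a type II chain. KRT5 (type II) and KRT14 (type I) pair in the proliferating basal layer of the epidermis, where KRT15 is a further type I chain that is strongest in quiescent basal cells and in the hair follicle bulge. KRT6A, KRT6B and KRT6C (type II) and their partners KRT16 and KRT17 (type I) are kept low between hair follicles and are induced at wound edges and in inflamed skin, and cultured keratinocytes also express them.

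The type II members lie side by side on chromosome 12 and the type I members on chromosome 17, all on the minus strand and all protein coding (GENCODE 29, GRCh38, matched by Ensembl ID). KRT6B (ENSG00000185479) spans 52446651 to 52452126, KRT6C (ENSG00000170465) 52468516 to 52473785, KRT6A (ENSG00000205420) 52487174 to 52493257 and KRT5 (ENSG00000186081) 52514575 to 52520687 on chromosome 12. On chromosome 17, KRT15 (ENSG00000171346) spans 41513743 to 41522529, KRT14 (ENSG00000186847) 41582279 to 41586921, KRT16 (ENSG00000186832) 41609778 to 41615899 and KRT17 (ENSG00000128422) 41619441 to 41624842. KRT16 and KRT17 are 3.54 kb apart, and KRT14 is 22.9 kb from KRT16.

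Some of these genes are so alike that a read can belong to more than one of them, and the labels do not record how the authors divided such reads. The coding sequences of KRT6A, KRT6B and KRT6C are each 1692 bases long without gaps and differ from one another at 51 positions, of which KRT6A alone differs at 26, KRT6B alone at 16 and KRT6C alone at 9. KRT6A and KRT6C share an identical run of 349 bases. The stretch of 90 coding bases with as many differences as any, bases 656 to 745 from the start codon (GENCODE 29 transcripts), shows what a read must cover to tell the copies apart. Capitals mark the 10 positions at which at least 1 copy differs.
KRT6A: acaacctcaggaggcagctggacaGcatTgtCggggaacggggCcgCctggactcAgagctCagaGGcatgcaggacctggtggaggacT
KRT6B: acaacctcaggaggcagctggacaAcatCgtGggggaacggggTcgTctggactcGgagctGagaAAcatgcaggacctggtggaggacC
KRT6C: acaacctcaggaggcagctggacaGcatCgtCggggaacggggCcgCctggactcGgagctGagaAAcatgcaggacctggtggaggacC
Of all windows of 100 bases in the coding sequence, 24.2% for KRT6A, 32.4% for KRT6B and 42.2% for KRT6C also occur in a transcript of another annotated gene. The share was 7.06% for KRT14, 8.41% for KRT16, 2.09% for KRT5 and 0.418% for KRT17, and 0 of 1269 such windows of KRT15 were shared. With windows of 50 bases the shares were higher, at 52.8%, 62.6% and 71.6% for KRT6A, KRT6B and KRT6C. They were 24.6%, 23.9% and 17.2% for KRT14, KRT16 and KRT17 and 5.75% and 1.29% for KRT5 and KRT15. At this length, KRT17 shared most with annotated pseudogenes of KRT17, and KRT16 with pseudogenes of KRT16 and with KRT14. The values of the KRT6 copies are therefore uncertain one by one, and their sum is given beside them.

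KRT14 and KRT16 share most among the type I members. Their coding sequences hold an identical run of 158 bases, at coding bases 310 to 467 of KRT14 and 316 to 473 of KRT16. The same place in KRT17, coding bases 217 to 374, differs from it at 18 positions. These are in capitals in the 3 sequences, which are shown because KRT14 and KRT16 have the same letters throughout, while KRT17 can be told apart only by a read that covers a capital.
KRT14: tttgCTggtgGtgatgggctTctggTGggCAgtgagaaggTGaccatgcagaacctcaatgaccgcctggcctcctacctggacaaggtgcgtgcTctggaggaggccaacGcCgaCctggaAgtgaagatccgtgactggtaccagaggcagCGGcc
KRT16: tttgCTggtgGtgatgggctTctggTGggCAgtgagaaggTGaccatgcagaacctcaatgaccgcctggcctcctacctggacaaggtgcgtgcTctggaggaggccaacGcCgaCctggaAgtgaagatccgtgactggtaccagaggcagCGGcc
KRT17: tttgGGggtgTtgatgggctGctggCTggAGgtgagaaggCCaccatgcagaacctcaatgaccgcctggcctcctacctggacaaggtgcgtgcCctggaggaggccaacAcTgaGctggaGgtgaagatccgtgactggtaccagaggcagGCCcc

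The libraries set a frame for every value below. From the spacing of the lowest values, they held about 16900000 to 25000000 fragments, which puts about 1154 fragments behind the smallest member value, KRT6B in OGD-R 4 (counting SD 2.94%). At this depth, counting error is small for all 8 genes. The counting SD takes the estimated depth as given and leaves out the doubt from reads shared between genes. The Control libraries fell in 2 places. Log2 values correlated across genes at 0.992 between Controls 1 and 2, at 0.991 between Controls 3 and 4 and at 0.874 to 0.881 between these pairs, against 0.992 to 0.993 among the OGD-R libraries. Controls 1 and 2 correlated with OGD-R at 0.940 to 0.947 and Controls 3 and 4 at 0.879 to 0.887, so Controls 3 and 4 stood apart from the other 6 libraries. Results are therefore also given without Controls 3 and 4 and without Controls 1 and 2. Genes encoded in mitochondria took 17.5% to 21.9% of the summed FPKM in Control and 26.6% to 29.1% in OGD-R. Their part in the results was not tested, and values scaled without them are named where the call of a member changes. Calls of single genes in the lists below were not examined under that scaling. All 10 keratinocyte markers examined were at 1 FPKM or more in every library. Of the fibroblast, melanocyte, endothelial and immune markers, 7 of 8, 5 of 6, 5 of 5 and 6 of 6 stayed under 1 FPKM in every library, with COL1A2 and TYR listed at 0. The summed fibroblast list lay between 0.916 and 8.72 FPKM in Control and between 3.85 and 5.08 FPKM in OGD-R, the melanocyte list between 1.23 and 1.60 FPKM and between 2.29 and 2.59 FPKM. The endothelial list lay between 0.0475 and 0.199 FPKM in Control and between 0.296 and 0.463 FPKM in OGD-R, and the immune list between 0.123 and 0.406 FPKM and between 0.280 and 0.518 FPKM.

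The 3 basal keratins rose in OGD-R, KRT15 the most and KRT14 the least, KRT6A fell slightly, and KRT6B, KRT6C, KRT16 and KRT17 did not pass the test. Of the 8 members, 3 were called higher and 1 lower (limma on log2(FPKM + 1), Benjamini-Hochberg adjusted over 11740 genes, threshold 0.05). Over all genes tested, 10.2% were called higher and 9.69% lower (19.9% in all), and 51.4% of the called genes were higher, or 64.9% when values were scaled without mitochondrial genes, 44.5% with median-ratio scaling and 42.1% when scaled without keratin genes. OGD-R lay wholly above Control for 3 members and wholly below for 2, where 15.2% and 14.8% of all genes did so (30.0% in either direction). The median log2 fold change was -0.14 over the members and 0.02 over all genes. The bar plots show each gene in each library.

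**Figure D1:**
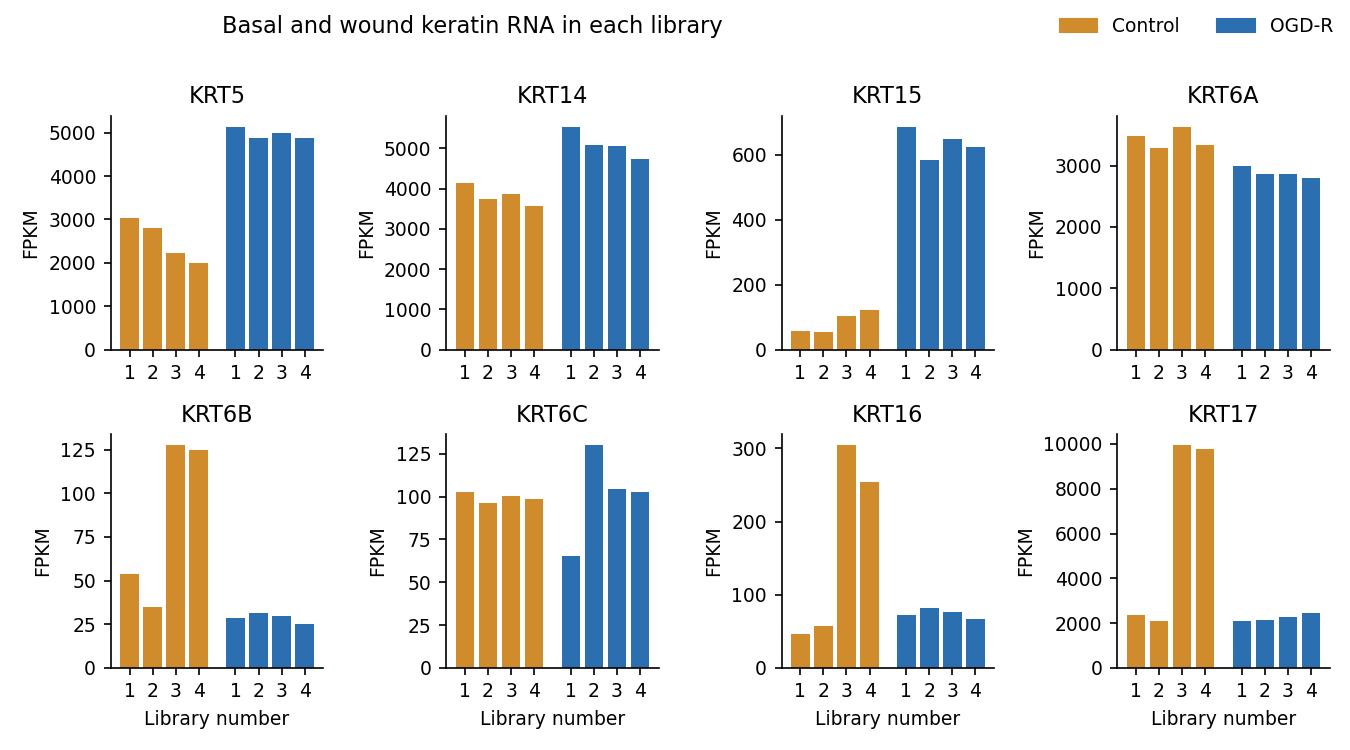
FPKM (y axis, from 0, own scale in each panel) of the 8 keratins in Control (orange) and OGD-R (blue) libraries 1 to 4 (x axis), 1 bar per library. KRT5, KRT14 and KRT15 are higher in every OGD-R library than in any Control, and KRT6B, KRT16 and KRT17 are highest in Controls 3 and 4.

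KRT15 was the member with the largest change. It was at 57.7, 55.2, 104 and 121 FPKM across Controls 1 to 4 against 686, 585, 650 and 624 FPKM in OGD-R 1 to 4. Every OGD-R library was far above every Control, and Controls 3 and 4 were above Controls 1 and 2. The means were 636 ± 42.6 and 84.5 ± 33.2 FPKM (SD, n = 4 each), a 7.53-fold difference, and the log2 fold change was 2.98 ± 0.26 (SE, limma adjusted p = 0.000256). Leaving out Controls 3 and 4 gave 3.47, and leaving out Controls 1 and 2 gave 2.49. KRT15 moved from between the 400th and 1199th place among all genes of a Control library to between the 58th and 81st place in OGD-R.

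KRT5, the basal type II keratin, rose in OGD-R. It was at 3027, 2792, 2215 and 1984 FPKM across Controls 1 to 4 against 5130, 4884, 4992 and 4888 FPKM in OGD-R 1 to 4. The groups did not overlap, and here Controls 3 and 4 were the lowest libraries. Means were 4973 ± 116 FPKM in OGD-R and 2505 ± 486 FPKM in Control (SD, n = 4 each), a 1.99-fold difference. As a log2 fold change this was 1.01 ± 0.14 (SE, limma adjusted p = 0.00187). The size depended on the Control pair, with 0.77 without Controls 3 and 4 and 1.25 without Controls 1 and 2.

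KRT14, the type I partner of KRT5, rose less. Its values were 4136, 3751, 3875 and 3556 FPKM in Controls 1 to 4 against 5526, 5087, 5063 and 4742 FPKM in OGD-R 1 to 4. Again no OGD-R library reached down to a Control, but the gap was narrow, and the Control pairs did not stand apart for this gene. The log2 fold change was 0.41 ± 0.08 (SE, limma adjusted p = 0.00911), and it lay at 0.37 without Controls 3 and 4 and at 0.46 without Controls 1 and 2. This call was lost when no filter was put on low values (limma adjusted p = 0.194).

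KRT6A, the most abundant wound keratin of type II, was slightly lower in OGD-R. It was at 3475, 3291, 3626 and 3340 FPKM across Controls 1 to 4 against 2988, 2859, 2862 and 2788 FPKM in OGD-R 1 to 4. The groups did not overlap, and the Controls lay close together. Its log2 fold change was -0.26 (SE 0.066, limma adjusted p = 0.0296). The fall kept its direction in all 20 alternatives, but the call was lost in 10 of them. These included scaling without mitochondrial genes (limma adjusted p = 0.104), no filter (limma adjusted p = 0.325), library weights by group (limma adjusted p = 0.0855) and 6 of 8 fits that left out 1 library, those without Control 1, Control 3 or any OGD-R library (limma adjusted p from 0.0512 to 0.10). KRT6A, KRT6B and KRT6C summed were at 3631, 3422, 3854 and 3563 FPKM across Controls against 3082, 3020, 2996 and 2916 FPKM in OGD-R. The sum, fitted as 1 gene, fell by 0.27 (SE 0.0666, limma adjusted p = 0.0263).

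KRT6B and KRT6C were minor copies, between 0.857% and 4.30% of the KRT6 sum each. KRT6B was at 53.5, 34.9, 127 and 125 FPKM across Controls 1 to 4 against 28.7, 31.5, 29.9 and 25.0 FPKM in OGD-R 1 to 4. All OGD-R libraries lay below all Controls, but Control 2 came close to them and Controls 3 and 4 stood far above. With a log2 fold change of -1.34 ± 0.40 (SE), KRT6B just missed the threshold (limma adjusted p = 0.0502). It passed without Controls 3 and 4 (log2 fold change -0.58, limma adjusted p = 0.00890) and without Controls 1 and 2 (-2.10, limma adjusted p = 5.53e-08).

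KRT6C was at 103, 96.0, 100 and 98.5 FPKM across Controls 1 to 4 against 65.1, 130, 105 and 103 FPKM in OGD-R 1 to 4. The Controls were nearly equal and lay inside the range of OGD-R, which OGD-R 1 and 2 set. The log2 fold change was -0.03 with a 95% interval from -0.46 to 0.41 (limma adjusted p = 0.939), so changes within this interval are not excluded.

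KRT16 and KRT17, the type I wound keratins, differed more between the Controls than between the groups. KRT17 was at 2346, 2089, 9933 and 9796 FPKM across Controls 1 to 4 against 2084, 2137, 2292 and 2435 FPKM in OGD-R 1 to 4. Controls 1 and 2 lay within the OGD-R range, whereas Controls 3 and 4 were far above it. In Control 3, KRT17 was in the 3rd place among all genes, against places 19 to 21 in Controls 1 and 2 and in OGD-R. With all libraries the log2 fold change was -1.07 with a 95% interval from -2.30 to 0.17 (limma adjusted p = 0.203). It was 0.01 without Controls 3 and 4 (limma adjusted p = 0.912) and -2.14 without Controls 1 and 2 (limma adjusted p = 4.96e-08).

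KRT16 was at 46.0, 57.2, 304 and 254 FPKM across Controls 1 to 4 against 72.4, 81.4, 76.0 and 67.3 FPKM in OGD-R 1 to 4. OGD-R lay above Controls 1 and 2 and below Controls 3 and 4. The log2 fold change of -0.69 did not pass with all libraries (95% interval from -2.08 to 0.71, limma adjusted p = 0.464), and the 2 pairs of Controls gave opposite calls. It was 0.52 without Controls 3 and 4 (limma adjusted p = 0.00167) and -1.89 without Controls 1 and 2 (limma adjusted p = 1.65e-07). KRT14, with which KRT16 shares sequence, ranged from 3556 to 5526 FPKM, and the part of shared reads in the KRT16 values was not tested.

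**Figure D2:**
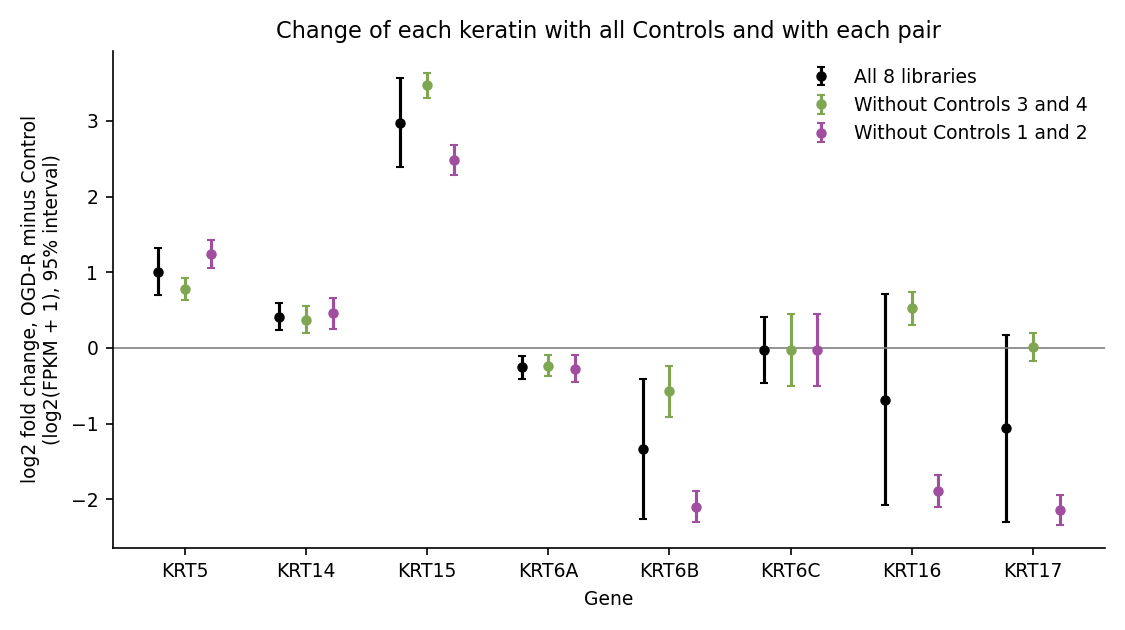
Log2 fold change of OGD-R minus Control on log2(FPKM + 1) (y axis, points with 95% intervals from limma) for each keratin (x axis), with all libraries (black), without Controls 3 and 4 (green) and without Controls 1 and 2 (purple). KRT5, KRT14 and KRT15 stay above 0 and KRT6A below 0 in all 3 fits, while KRT16 lies on both sides of 0.

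Without Controls 3 and 4, 4 members were called higher and 2 lower, where 23.0% and 32.5% of all genes were (55.5% in all). Without Controls 1 and 2, 3 were called higher and 4 lower, where 39.3% and 28.5% of all genes were (67.8% in all). Each of these fits holds a single pair of Controls, whose spread limma pools with that of the OGD-R libraries. The difference between the Control pairs therefore does not enter the p-values of these fits. Controls 3 and 4 were the 2 highest of the 8 libraries for 3 members, KRT6B, KRT16 and KRT17, and the 2 lowest for KRT5, where 23.6% and 33.3% of all genes showed these orders.

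The order of the members by FPKM, a level per length, differed between the groups. In OGD-R, KRT14 (5104 ± 322 FPKM, SD, n = 4) and KRT5 overlapped at the top, followed by KRT6A (2874 ± 83.1), KRT17 (2237 ± 159) and KRT15, whose ranges did not overlap. KRT6C (101 ± 26.7) and KRT16 (74.3 ± 5.94) overlapped, and KRT6B (28.8 ± 2.77) was lowest. In Control, KRT17 was highest by its mean (6041 ± 4417), with Controls 1 and 2 below KRT6A and Controls 3 and 4 above every other member. KRT14 (3830 ± 243) and KRT6A (3433 ± 150) overlapped, KRT6A and KRT5 did not, and KRT16 (165 ± 133), KRT6C (99.4 ± 2.86), KRT6B (85.1 ± 47.8) and KRT15 were low, with overlapping ranges. KRT15 thus took the last place by mean in Control and the fifth in OGD-R.

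Ratios within a library do not depend on how a library is scaled, and they are given as a description with no test. The ratio of KRT14 to KRT5, the basal pair, was 1.37, 1.34, 1.75 and 1.79 in Controls 1 to 4 and 1.08, 1.04, 1.01 and 0.970 in OGD-R 1 to 4. OGD-R libraries thus held nearly equal levels of the 2 partners, and every Control had more KRT14 than KRT5. The ratio of KRT15 to KRT5 was 0.0191, 0.0198, 0.0470 and 0.0610 in Controls and between 0.120 and 0.134 in OGD-R, so KRT15 was higher in OGD-R also relative to KRT5. KRT6A, KRT6B and KRT6C together reached 1.20, 1.23, 1.74 and 1.80 times the KRT5 level in Controls 1 to 4 and 0.597 to 0.618 times in OGD-R.

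The ratio of KRT17 to KRT14 was 0.567, 0.557, 2.56 and 2.75 across Controls 1 to 4 and ranged from 0.377 to 0.513 in OGD-R. KRT17 to KRT16 varied much less, from 32.7 to 51.0 in Control and from 26.2 to 36.2 in OGD-R, so both genes stood high in the same libraries. The summed wound members reached 0.834, 0.844, 2.27 and 2.40 times the summed basal members in Controls 1 to 4 and 0.462 to 0.528 times in OGD-R, without overlap. The type I members summed to 0.989, 0.958, 2.34 and 2.47 times the type II members in Controls 1 to 4 and to 0.998 to 1.02 times in OGD-R. Controls 1 and 2 and all OGD-R libraries were near equality, and in Controls 3 and 4 the type I sum was larger, with KRT17 its largest member. Over all keratin genes the ratio was 0.937, 0.915, 1.98 and 2.10 in Controls and 1.05 to 1.08 in OGD-R.

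**Figure D3:**
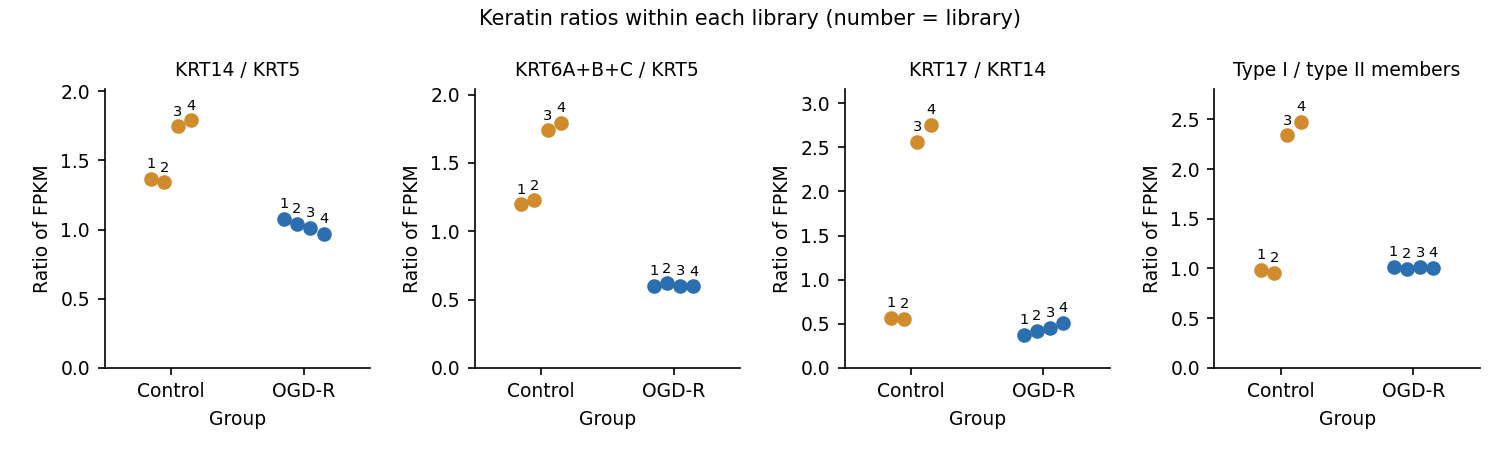
Ratios of FPKM within each library (y axes, from 0) for 4 pairs of genes or sums, by group (x axis), with 1 point per library and its number above it. KRT14 to KRT5 and the KRT6 sum to KRT5 are lower in every OGD-R library than in any Control, and Controls 3 and 4 stand apart in all 4 panels.

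The 8 members took 2.64% to 4.73% of the summed FPKM in Control and 3.30% to 3.51% in OGD-R. Among keratins alone they held 86.0% to 87.2% in every Control and 80.4% to 81.1% in every OGD-R library. KRT5 took 19.8%, 20.0%, 9.39% and 8.93% of keratin FPKM in Controls 1 to 4 and 24.9% to 25.2% in OGD-R, and KRT17 took 15.3%, 15.0%, 42.1% and 44.1% in Controls and 10.1% to 12.6% in OGD-R. KRT15 stayed under 1% in Control, at 0.377% to 0.545%, and took 3.0% to 3.32% in OGD-R.

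**Figure D4:**
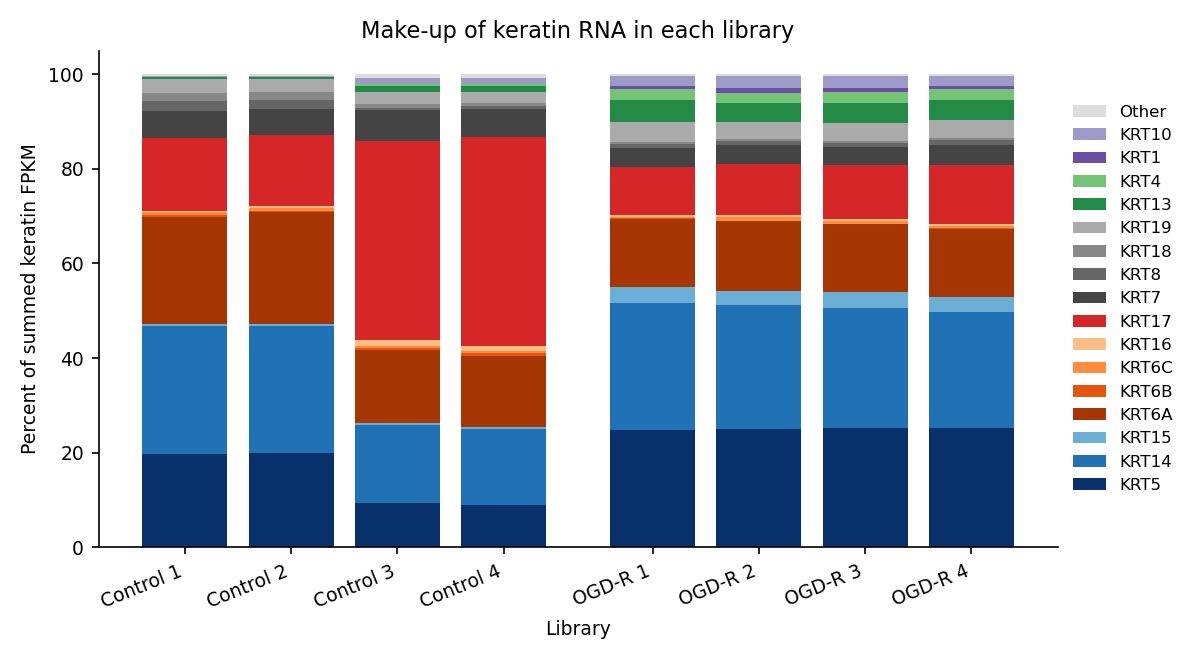
Percent of the summed keratin FPKM (y axis) taken by each keratin in each library (x axis), with basal members in blue, wound members in orange and red, simple keratins in grey and others in green and purple. KRT17 takes 42.1% and 44.1% in Controls 3 and 4, and KRT13 takes 3.92% to 4.59% in OGD-R.

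Of the 47 other keratins in the tables, 15 could be tested, of which 6 rose (KRT1, KRT4, KRT9, KRT13, KRT19 and KRT77) and 1 fell (KRT18), with a median log2 fold change of 0.49, where 10.2% of all genes rose, 9.69% fell and the median was 0.02. OGD-R lay wholly above Control for 7, these 6 and KRT10, and wholly below for 1, where 15.2% and 14.8% of all genes did so. KRT77 was at 0.163 to 0.942 FPKM in Control and at 2.24 to 2.85 FPKM in OGD-R. It passed the filter only through OGD-R, so its place in these counts depended on the filter. KRT20 and KRT34 passed it only through Controls 3 and 4, and neither was called. KRT10 was not called (log2 fold change 2.37, limma adjusted p = 0.0718). It was at 3.97 leaving out Controls 3 and 4 and at 0.77 leaving out Controls 1 and 2. KRT4 and KRT1, keratins of mucosal and of suprabasal cells, had the largest increases, with log2 fold changes of 4.15 ± 0.88 and 3.66 ± 0.59 (SE, limma adjusted p = 0.0141 and 0.00436). KRT4 measured 6.68, 5.52, 88.1 and 75.5 FPKM across Controls 1 to 4 against 412 to 458 FPKM in OGD-R, so Controls 3 and 4 were above Controls 1 and 2 and below every OGD-R library. Leaving out Controls 3 and 4, the log2 fold changes were 5.92 for KRT4 and 4.81 for KRT1, and leaving out Controls 1 and 2 they were 2.37 and 2.50. KRT18, a type I keratin of simple epithelia, fell by 1.27 (SE 0.188, limma adjusted p = 0.00302).

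Of 25 listed transcription factors and receptors known to act on basal or wound keratin promoters, 24 were tested, 3 rose (RARG, CEBPA and SP1) and 3 fell (FOSL1, RELA and RARA), with a median log2 fold change of -0.18. These counts stand near the 10.2% of all genes called higher and 9.69% called lower. At an unadjusted p under 0.05 by limma, 3 were higher and 7 lower. OGD-R lay wholly above Control for 3 of the 24 and wholly below for 7, where 15.2% and 14.8% of all genes did so. TP63, which encodes the p63 factor that activates KRT5 and KRT14, was at 39.7, 46.0, 73.2 and 74.4 FPKM across Controls 1 to 4 against 67.7, 59.6, 55.2 and 57.5 FPKM in OGD-R 1 to 4. OGD-R lay between the Control pairs (limma adjusted p = 0.801). NFE2L2, the gene of NRF2, which can activate KRT6A, KRT16 and KRT17, was at 44.5, 49.0, 95.7 and 98.7 FPKM across Controls against 49.9, 57.9, 49.5 and 57.6 FPKM in OGD-R (limma adjusted p = 0.438), again with Controls 3 and 4 high.

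FOSL1, an AP-1 subunit, had the largest change in this list, from 216 ± 39.5 to 28.8 ± 1.53 FPKM (SD, n = 4 each, log2 fold change -2.84, limma adjusted p = 2.56e-05). RELA, the NF-kB subunit p65, fell by 0.78 (limma adjusted p = 0.0230), and its log2 fold change was -0.44 leaving out Controls 3 and 4 and -1.12 leaving out Controls 1 and 2. RARG, the main retinoic acid receptor of epidermis, was at 20.5, 18.1, 21.8 and 19.9 FPKM across Controls 1 to 4 against 44.7, 43.4, 43.6 and 43.0 FPKM in OGD-R 1 to 4, with a log2 fold change of 1.09 (limma adjusted p = 0.000142). CEBPA, a factor of differentiating keratinocytes, had a log2 fold change of 1.07 (limma adjusted p = 0.000540). Neither RARG nor CEBPA differed much between the Controls.

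Of the 10 plakins and plaque proteins that tie keratin filaments to hemidesmosomes and desmosomes, 4 rose (PKP1, DST, EVPL and PPL) and 2 fell (PLEC and PKP2), with a median log2 fold change of 0.43, where 10.2% and 9.69% of all genes rose and fell. PKP1, a desmosomal plakophilin, was at 102, 104, 149 and 142 FPKM across Controls 1 to 4 against 292, 275, 281 and 263 FPKM in OGD-R 1 to 4 (log2 fold change 1.17, limma adjusted p = 0.00123). DST, whose epithelial form BPAG1e links KRT5 and KRT14 filaments to hemidesmosomes, had a log2 fold change of 0.93 (limma adjusted p = 0.0109), which was 0.59 leaving out Controls 3 and 4 and 1.27 leaving out Controls 1 and 2. PLEC, the other hemidesmosomal linker, went the other way and fell by 0.87 (limma adjusted p = 0.00237), and PKP2 fell by 0.72 (limma adjusted p = 0.00228).

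Of 15 proteins known to bind, fold, modify or degrade keratins, 0 rose and 4 fell by limma (SQSTM1, SFN, FAM83H and STUB1), against 1 higher and 5 lower at an unadjusted p under 0.05, with a median log2 fold change of -0.10. Over all genes, 10.2% were called higher and 9.69% lower. SQSTM1, the autophagy receptor p62, was at 116, 112, 399 and 387 FPKM across Controls 1 to 4 against a mean of 68.6 ± 2.71 FPKM (SD, n = 4) over OGD-R (log2 fold change -1.61, limma adjusted p = 0.0379). It was at -0.72 leaving out Controls 3 and 4 and at -2.50 leaving out Controls 1 and 2. SFN, the 14-3-3 sigma protein that binds phosphorylated KRT17, was at 766, 658, 1082 and 1193 FPKM across Controls against 584, 584, 583 and 515 FPKM in OGD-R (log2 fold change -0.67, limma adjusted p = 0.0412), or -0.33 and -1.0 leaving out the same pairs.

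Of 20 genes known to be raised beside the wound keratins in activated epidermis, 19 were tested, 0 rose and 3 fell by limma (AREG, PLAUR and S100A2), against 0 higher and 5 lower at an unadjusted p under 0.05, with a median log2 fold change of -0.86. The shares over all genes were again 10.2% and 9.69%. By limma without Controls 3 and 4, 9 of these genes were called higher and 5 lower, where 23.0% and 32.5% of all genes were. Without Controls 1 and 2, 0 were called higher and 19 lower by limma, where 39.3% and 28.5% of all genes were. IL36G and CCL20 passed the filter only through Controls 3 and 4. They were therefore not tested without Controls 3 and 4, and their fall without Controls 1 and 2 was set by the filter. AREG, an EGF receptor ligand, was at 37.4, 44.9, 117 and 135 FPKM across Controls 1 to 4 against a mean of 9.79 ± 1.08 FPKM (SD, n = 4) over OGD-R (log2 fold change -2.76, limma adjusted p = 0.00297), and its log2 fold change was -1.97 leaving out Controls 3 and 4 and -3.56 leaving out Controls 1 and 2. PLAUR, the urokinase receptor, fell by 2.04 (limma adjusted p = 0.00232).

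Profiles across the 8 libraries were compared by the root mean square difference of log2(FPKM + 1) values, each centred on the gene's own mean, which is given with no test. Among the members, KRT16 and KRT17 were most alike (0.28), followed by KRT6A with KRT6C (0.30), KRT6B with KRT17 (0.31), KRT5 with KRT14 (0.33) and KRT14 with KRT6A (0.34). The measure is small for any genes that change little, whatever their direction. KRT14 and KRT6A moved in opposite directions, with log2 fold changes of 0.41 and -0.26. KRT15 was far from all, its nearest member being KRT5 (1.12). Among genes that are no keratins, the 3 nearest to KRT5 were ALAD (0.05), TNS3 (0.08) and LGALS1 (0.08), and those nearest to KRT14 were B3GALT4 (0.05), KIAA1522 (0.06) and CRIP2 (0.06). Genes near KRT15 included C10orf99 (0.24) and DSG4 (0.27). Both were under 1 FPKM in Controls 1 and 2, where the added 1 shrinks relative differences.

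The wound keratins had other neighbours. KRT6A was nearest to MTMR6 (0.03), FEM1A (0.03) and C1orf198 (0.04), and KRT6B to PIK3CD (0.17), STX1A (0.18) and KIF3C (0.19). KRT6C was nearest to SERF1A (0.15), ZNF814 (0.16) and MANF (0.16), KRT16 to KDM7A (0.09), HMGCS1 (0.10) and GAB2 (0.12), and KRT17 to ZNF165 (0.06), CREB5 (0.10) and LIPG (0.11). The added 1 shrinks the differences of low genes. KDM7A was at 0.358, 0.662, 6.81 and 6.55 FPKM and CREB5 at 0.141, 0.179, 4.32 and 4.63 FPKM across Controls 1 to 4. In FPKM, their Control pairs lay relatively further apart than those of KRT16 and KRT17. HMGCS1, an enzyme of cholesterol synthesis, showed the pattern of KRT16 with 15.1, 17.2, 93.5 and 86.0 FPKM in Controls 1 to 4 and 23.6 to 26.0 FPKM in OGD-R.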

How the data were processed

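RNA was sequenced in 8 HaCaT libraries, whose titles give the groups. Total RNA was used, with a NEBNext and a SMARTer kit, per the labels' protocols. Aligner, counting tool, genome build and gene models were not given in the sources used here. Each deposited table lists IDs, symbols and values without a unit. The authors' values were taken to be FPKM, because low values of 944 single-exon genes were spaced by a constant over gene length (16 to 29 of 117 to 147 low values per library at most 0.5% off the best step). Both this reading and the implied depths of 16900000 to 25000000 fragments rest on few values. Steps were sought only within a range set beforehand, so a depth outside that range could not have been found.

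All 19974 Ensembl IDs were found in GENCODE 29, 19925 with the same symbol. Values were tested as log2(FPKM + 1), which understates changes of low genes, with limma 3.58.1 in R 4.3.3 with an intensity trend, keeping genes that averaged 1 FPKM or more. The p-values were adjusted over all 11740 genes with a threshold of 0.05. Coding sequences were taken from GENCODE 29, per gene the longest that starts with a start codon. Figures used Python 3.11.15 and matplotlib 3.10.9. The fit was tested on simulated data with the spread of the OGD-R libraries only. That simulation did not hold the split between the Controls, so it does not show how the fit behaves with it.

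The members and lists were chosen with earlier results of these data known. Named genes are the members, the 2 largest called changes in each direction per list, TP63 and NFE2L2, and the 3 genes nearest to each member. A gene that this rule takes is not reported here. Other called genes of a list are named to complete its count, and KRT10 to complete the count of keratins wholly above Control. IL36G, CCL20, KRT20 and KRT34 are named for passing the filter only through Controls 3 and 4. S100A7, PI3 and MMP9 were chosen after their values were seen. Any 2 libraries had at most 1 identical value above 0. Alternatives covered pseudocounts, filters, libraries left out, a replicate block, 3 scalings, the trend, library weights and the summed KRT6 copies.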

Additional observations from a re-analysis of the deposited data

Results flagged for a closer look

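A library stood apart from the other 3 of its group by Dixon's criterion for 5 of the genes named, which chance alone does in about 1 in 20 groups, and 130 groups were examined. RELA was at 24.4 FPKM in OGD-R 1 against 21.7 to 22.1 FPKM in the other OGD-R libraries. PLEC was at 31.7 FPKM in OGD-R 1 against 26.9 to 27.6 FPKM. C1orf198 was at 7.93 FPKM in OGD-R 1 against 7.16 to 7.26 FPKM. SERF1A was at 2.45 FPKM in OGD-R 1 against 4.82 to 4.98 FPKM, and SFN was at 515 FPKM in OGD-R 4 against 583 to 584 FPKM. No keratin member was among them. The criterion looks for 1 library apart, so it cannot flag genes such as KRT17, for which Controls 3 and 4 stood apart together.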

How the results depend on the processing

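KRT5 and KRT15 kept direction and call in all 20 alternatives and KRT14 in 19. Without a filter the log2 fold change of KRT14 was 0.41 and no longer called, and that of KRT6A was -0.26 and not called. The number of members called lower was 0 without a filter, with the replicate block and when scaled without mitochondrial genes (1, 2 and 2 at an unadjusted p under 0.05 by limma), 2 without Controls 3 and 4, 4 without Controls 1 and 2, and 0 to 2 when 1 library was left out, when 3 members were always called higher. Over all genes, 1202 were called higher and 1138 lower. These counts were 689 higher at a mean of at least 5 FPKM, 2700 and 3808 without Controls 3 and 4, 4636 and 3360 without Controls 1 and 2, and 700 to 1448 and 565 to 1321 with 1 library left out. With the replicate block they were 625 and 507, and KRT6A stayed at -0.26 but was not called (limma adjusted p = 0.122). Same-numbered deviations from the group means correlated at 0.045 to 0.065 across genes, and not every library correlated best with its own number. Controls 1 and 2 correlated at 0.045 to 0.109 with OGD-R 1 and 2 and at -0.106 to -0.028 with OGD-R 3 and 4. Controls 3 and 4 correlated at 0.053 to 0.113 with OGD-R 3 and 4 and at -0.087 to -0.027 with OGD-R 1 and 2. Control deviations mostly follow the split between the Control pairs, so this check cannot tell whether the numbers pair the libraries. KRT6A was at -0.26 with library weights by group (limma adjusted p = 0.0855), at -0.18 scaled without mitochondrial genes, both not called, and between -0.28 and -0.23 with 1 library left out. KRT6B was called at -0.58 without Controls 3 and 4, at -2.10 without Controls 1 and 2 and at -1.34 with library weights, and lay between -1.69 and -1.08 with 1 library left out, where it was called without Control 1 and without Control 2. KRT6C lay at 0.0494 when scaled without mitochondrial genes and between -0.16 and 0.17 with 1 library left out. Without Controls 3 and 4, KRT16 lay at 0.52 and KRT17 at 0.0122, and without Controls 1 and 2 they were called at -1.89 and -2.14. With 1 library left out, KRT16 lay between -1.14 and -0.24 and KRT17 between -1.45 and -0.70, never called. The log2 ratios, OGD-R minus Control, were as follows without Controls 3 and 4 and without Controls 1 and 2. KRT14 to KRT5 was at -0.40 and -0.79, KRT15 to KRT5 at 2.72 and 1.25, KRT17 to KRT5 at -0.76 and -3.39, and KRT17 to KRT14 at -0.36 and -2.60. KRT16 to the KRT6 sum was at 0.76 and -1.60, wound to basal members at -0.76 and -2.24, and type I to type II members at 0.052 and -1.25. The cause of these differences was not tested.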

Other observations

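The order in which Controls 3 and 4 are the 2 highest of the 8 libraries, found in 23.6% of all genes tested, was looked for after the values were seen. Of 19 genes known to be raised beside the wound keratins, 18 had it, among them S100A7, PI3 and MMP9, which were chosen after their values were seen. The 18 also hold IL36G and CCL20, which passed the filter only through Controls 3 and 4. For these genes the order was set by the filter. S100A7, an antimicrobial S100 protein, measured 0.0839, 0, 44.4 and 53.4 FPKM across Controls 1 to 4 and between 27.2 and 42.1 FPKM in OGD-R. PI3, the protease inhibitor elafin, measured 3.32, 2.33, 377 and 434 FPKM across Controls 1 to 4 and between 98.0 and 142 FPKM in OGD-R. For both genes OGD-R lay between the Control pairs, as it did for KRT16. MMP9, the gelatinase B gene, measured 0.959, 1.41, 43.8 and 43.9 FPKM across Controls 1 to 4 and between 1.49 and 1.86 FPKM in OGD-R. Of the 24 regulators of keratin genes tested, 13 had Controls 3 and 4 highest and 2 had them lowest.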
